A study of Mus musculus with 19 samples.

Results

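Growth factor receptors set how long myeloid cells live and what they become, and 9 mouse genes of that kind were followed here in bone marrow cells: the ligand Csf1 and the receptor genes Csf1r, Csf2ra, Csf2rb, Csf2rb2, Il3ra, Flt3, Kit and Il6ra. They were picked by gene symbol, with earlier results of these data known. Values existed for 8 of the 9 among the 20998 genes of the table, and Csf2ra, the ligand-specific chain for GM-CSF, was not analysed here. The values are log2 expression levels from Affymetrix MoGene 2.0 ST arrays, 1 array per sorted sample and 19 in all. Macrophages came from marrow with metastases (n = 5) and from healthy marrow (n = 5), and Ly6C+ inflammatory monocytes came from marrow with metastases (n = 4) and from healthy marrow (n = 5). Metastases had been raised by injecting 100000 MetBo2 cells into the heart of female mice aged 4 weeks. MetBo2 is a single clone, selected for homing to bone, of the Met-1 mouse breast cancer line, which came from a tumour driven by the polyoma middle T oncoprotein. The mice received no treatment. No strain, no sort marker other than Ly6C, no age or injection of the healthy mice and no processing batch is given in the sources used here, so such differences cannot be told apart from the effect of the tumour. The labels do not say whether each array stands for a mouse of its own, and p-values then measure only the spread between these samples, which may be technical.

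Csf1 (M-CSF) binds the receptor tyrosine kinase Csf1r and keeps monocytes and macrophages alive. GM-CSF, IL-3 and IL-5 each bind an alpha chain of their own, Il3ra in the case of IL-3, and signal through the shared beta chain Csf2rb by way of JAK2 and STAT5. Mice carry a second beta chain gene, Csf2rb2, whose product serves IL-3 only. Kit and Flt3 are receptor tyrosine kinases of blood progenitors, and Kit also marks mast cells while Flt3 also serves dendritic cells. Il6ra binds IL-6 and signals through gp130, the product of Il6st.

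The samples labelled macrophages carried the transcripts of maturing neutrophils at very high levels. Ltf (lactoferrin) averaged 12.29 and 12.31 in macrophages from marrow with metastases and from healthy marrow, against 6.88 and 7.40 in monocytes from the same kinds of marrow. Of 9 maturing neutrophil markers, 8 were higher in macrophages than in monocytes in marrow with metastases and 7 in healthy marrow, and Mmp8 was lower in both. Their levels, summed on the linear scale, ran from 19500 to 21600 in macrophages with metastases and from 18000 to 20500 in healthy macrophages, against 3680 to 5270 and 3360 to 4840 in monocytes. Adgre1, which encodes the macrophage antigen F4/80, was lower in macrophages than in monocytes by log2 differences of -0.96 ± 0.16 (± SE here and below for differences, limma adjusted p = 5.93e-05) with metastases and -0.63 ± 0.15 (adjusted p = 0.0024) in healthy marrow. Vcam1, of marrow macrophages, was higher by 1.08 ± 0.18 (adjusted p = 9.05e-05) and 2.05 ± 0.17 (adjusted p = 4.80e-09). Of 13 macrophage markers, 6 were higher and 3 lower in macrophages with metastases, and 6 higher and 2 lower in healthy marrow. Their summed linear levels ran from 1550 to 1940 in macrophages and from 2630 to 2910 in monocytes with metastases. In healthy marrow the sums ran from 1590 to 2540 in macrophages and from 2450 to 2630 in monocytes. Their mean log2 level went the other way, at 5.93 against 5.75 with metastases and 6.02 against 5.63 in healthy marrow. Lymphoid genes were higher too. Of 8 T and NK cell markers, 8 were higher with metastases and 6 in healthy marrow, and of 11 B precursor markers, 7 and 9 were. Of 7 plasma cell markers, 3 were higher with metastases and 6 in healthy marrow, among them Jchain, of antibody-secreting cells, which averaged 10.34 in healthy macrophages and 2.68 in healthy monocytes. Of 8 Ly6C-high monocyte markers, 6 were lower and Chil3 higher in macrophages with metastases. In healthy marrow 7 were lower and Chil3 higher, and the median differences were -1.09 and -1.23. Over all genes 16.9% and 18% were lower. The word macrophages below therefore means the samples that bear this label. Every comparison of them with monocytes carries these differences in neutrophil, monocyte and lymphoid transcripts, whose part in the results was not tested. Among macrophages with metastases, replicates 2, 4 and 5 stood apart: Cd34, of progenitors, read 7.20, 6.88 and 7.70 there and 4.85 and 4.91 on replicates 1 and 3, and the basophil protease gene Mcpt8 read 9.09, 8.59 and 8.86 against 5.64 and 5.98. In bulk samples such as these, fewer cells of a type and less RNA per cell cannot be told apart. As a rough level for absent transcripts, 4 Y-linked genes stayed between 2.12 and 2.87 on all 19 arrays, those of healthy mice included. The 8 measured genes lay above that on every array (lowest value 3.84). This level is no strict floor for other genes, and the lowest value belonged to Csf1.

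The 250 bases before the RefSeq transcription start (GRCm38.p6) are shown for the 3 genes whose group means differed by more than 1 on the log2 scale, since the largest contrasts below concern them. The RefSeq promoter set used here held a sequence of this length for 7 of the 9 genes. Capitals mark matches, on either strand, to GAGGAA (the core bound by PU.1-type ETS factors), TTCNNNGAA (the STAT palindrome) and AGATAA (the GATA motif), none of which overlap. Csf2rb2 lies at chr15:78305722-78305971 on the minus strand, Kit at chr5:75574737-75574986 on the plus strand (the first of 2 listed starts) and Il6ra at chr3:89913197-89913446 on the minus strand.
Csf2rb2: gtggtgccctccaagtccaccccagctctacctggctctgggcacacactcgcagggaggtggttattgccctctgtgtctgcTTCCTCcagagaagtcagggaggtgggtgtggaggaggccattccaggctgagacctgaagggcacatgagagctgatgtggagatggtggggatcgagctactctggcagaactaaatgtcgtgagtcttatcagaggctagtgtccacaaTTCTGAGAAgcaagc
Kit: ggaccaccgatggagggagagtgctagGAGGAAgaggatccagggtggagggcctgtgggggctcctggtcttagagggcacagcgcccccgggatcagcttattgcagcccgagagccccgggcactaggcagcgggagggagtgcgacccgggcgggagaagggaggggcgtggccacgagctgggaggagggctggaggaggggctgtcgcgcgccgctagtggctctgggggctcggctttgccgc
Il6ra: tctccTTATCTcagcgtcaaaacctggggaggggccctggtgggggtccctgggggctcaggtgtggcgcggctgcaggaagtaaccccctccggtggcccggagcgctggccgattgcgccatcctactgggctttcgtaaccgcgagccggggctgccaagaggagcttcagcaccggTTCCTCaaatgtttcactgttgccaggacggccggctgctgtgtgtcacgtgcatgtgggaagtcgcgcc
Each of the 3 holds 1 ETS core, which 23.3% of 32851 promoters of this length hold. The core lies 167 to 162 bases upstream of the start in Csf2rb2, 223 to 218 in Kit and 70 to 65 in Il6ra. Csf2rb2 alone of the 3 holds the STAT palindrome, 15 to 7 bases upstream, a motif present in 7.02% of promoters. Il6ra alone holds the GATA motif, 245 to 240 bases upstream, present in 9.99%. These are letter matches and do not show binding.

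The first question was whether growth factor receptor genes differ between marrow with metastases and healthy marrow. Both beta chain genes rose in macrophages with metastases, Csf2rb by 1.46-fold and Csf2rb2 by 1.63-fold, and Csf2rb2 also rose in monocytes, by 1.78-fold. They were the only measured genes of the 8 to pass, that is, to reach an adjusted p below 0.05 in a limma fit of all 20998 genes. Thus 2 of 8 passed in macrophages, where 1.23% of all genes did (0.638% of all genes upward). In monocytes 1 of 8 passed, where 0.514% of all genes did (0.395% upward). The genes were chosen with earlier results of these data known, so the counts are no blind test against these shares. Both beta chain genes are near-identical copies whose values may not be independent. The median log2 difference of the 8 was 0.083 in macrophages and 0.01 in monocytes, beside 0.0021 and -0.011 over all genes. The plot of levels by group shows every array.

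**Figure D1:**
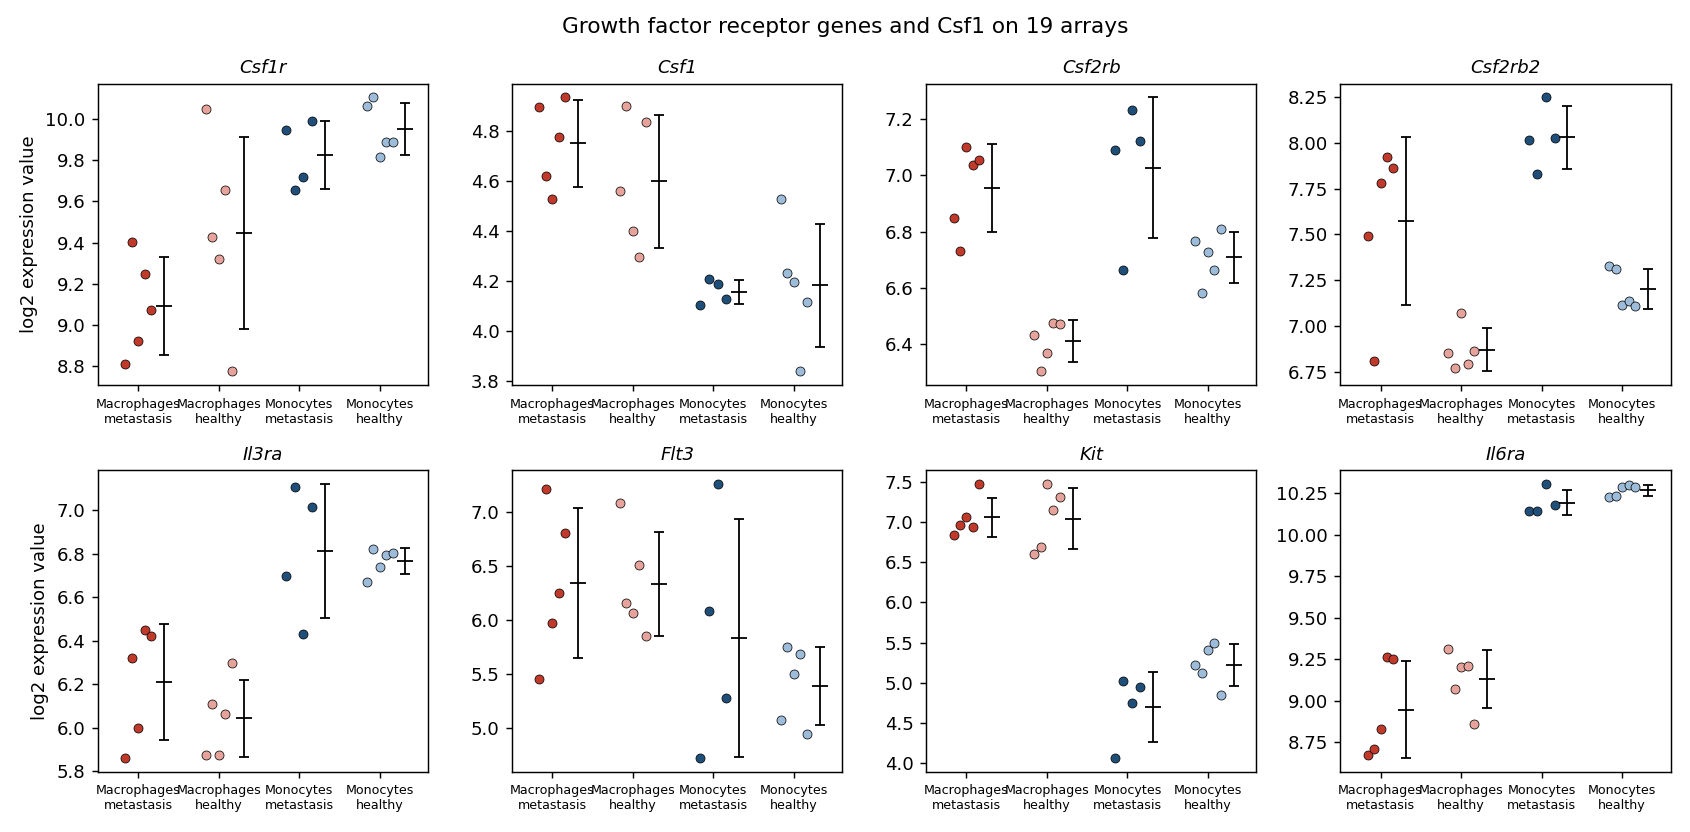
Log2 expression level of the 8 measured growth factor and receptor genes on each of the 19 arrays (points), by group, with the group mean and SD. Csf2rb2 lies higher with metastases in both cell types, Kit is high and Il6ra low in the samples labelled macrophages, and Flt3 is spread most widely within groups.

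Csf2rb2, the beta chain gene dedicated to IL-3, read 7.49, 6.81, 7.78, 7.92 and 7.86 in macrophages with metastases, against 6.85, 6.77, 7.07, 6.80 and 6.87 in healthy macrophages. In monocytes it read 8.01, 7.83, 8.25 and 8.03 with metastases, against 7.33, 7.31, 7.12, 7.14 and 7.11 in healthy marrow. The monocyte groups did not overlap, as for 5.41% of all genes, whereas in macrophages replicate 2 with metastases fell within the healthy range and the other 4 arrays lay above it. The log2 difference was 0.70 ± 0.15 (SE) in macrophages (adjusted p = 0.0217) and 0.83 ± 0.16 in monocytes (adjusted p = 0.0121). Over both cell types together it was 0.77 ± 0.11 (adjusted p = 0.000355), where 1.74% of all genes passed, 0.924% upward. The call in macrophages rested on the arrays used, although the difference stayed near its size. It was 0.68 (adjusted p = 0.0502) without healthy replicate 4. Without replicates 3, 4 and 5 with metastases, each in turn, it was 0.65 (adjusted p = 0.0579), 0.61 (adjusted p = 0.0656) and 0.63 (adjusted p = 0.0623). It was 0.70 (adjusted p = 0.154) when the 10 macrophage arrays were fitted by themselves. Without replicate 2 with metastases the difference was 0.89 (adjusted p = 4.41e-05). In monocytes the call was lost without replicate 3 with metastases (0.76, adjusted p = 0.0847).

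Csf2rb, the beta chain gene shared by GM-CSF, IL-3 and IL-5, read 6.85, 6.73, 7.10, 7.04 and 7.05 in macrophages with metastases, against 6.43, 6.30, 6.37, 6.47 and 6.47 in healthy macrophages. Every array with metastases lay above every healthy one, as was the case, in either direction, for 1.93% of all genes. The difference was 0.55 ± 0.10 (adjusted p = 0.00617), and it passed under all 26 alternative settings. Some of these left out only a monocyte array, which cannot move the difference itself. Monocytes read 7.09, 6.66, 7.23 and 7.12 with metastases, against 6.77, 6.58, 6.73, 6.66 and 6.81 in healthy marrow. The monocyte groups overlapped through replicate 2 with metastases, and the difference of 0.32 ± 0.11 did not pass (adjusted p = 0.3). Over both cell types the difference was 0.43 ± 0.07 (adjusted p = 0.00182). Csf2rb and Csf2rb2 lie side by side on chromosome 15 with only a microRNA gene listed between them, and they are near-identical copies. How far the probes of one gene read the other's transcripts is not known here, so their values may not be independent, and the difference between their changes was not tested.

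Il3ra, the IL-3 alpha chain gene, did not pass in either cell type. It averaged 6.21 ± 0.26 in macrophages with metastases and 6.04 ± 0.18 in healthy macrophages, and 6.81 ± 0.31 in monocytes with metastases and 6.77 ± 0.06 in healthy monocytes (SD). The log2 difference was 0.17 in macrophages (95% interval -0.10 to 0.44) and 0.05 in monocytes (-0.24 to 0.33). The intervals leave room for changes of the size measured for Csf2rb in monocytes.

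Other cell type markers moved in the same comparisons. In macrophages, the monocyte gene Vcan was higher with metastases by 1.47 ± 0.26 (adjusted p = 0.00374), and 1 of 8 monocyte markers, 1 of 10 stem and progenitor markers (Ly6a), 1 of 6 neutrophil precursor markers (Prtn3) and 1 of 8 T and NK cell markers (Cd8a) rose. Of 13 macrophage markers, Fcgr1 rose while Mrc1 and Spic fell. The dendritic cell gene Cd209a, 2 of 11 B precursor markers (Rag1 and Ebf1) and 1 of 9 erythroid markers (Car1) fell as well. Of 7 plasma cell markers 5 were lower, with summed linear levels of 895 to 1810 with metastases, against 2050 to 2520 in healthy macrophages. None of the 9 maturing neutrophil markers passed in either cell type. In monocytes Vcan was higher by 1.33 ± 0.27 (adjusted p = 0.02), and Fcgr1 rose too, 1 of 13 macrophage markers. Cd209a, 1 of 10 dendritic cell markers besides Flt3, averaged 4.47 in monocytes with metastases and 6.64 in healthy monocytes, a difference of -2.17 ± 0.26 (adjusted p = 6.14e-05). The part of these differences in the beta chain results was not tested. With replicates 2, 4 and 5 left out of the macrophages with metastases, a choice made after their values were seen, the same 2 genes passed, at 0.56 for Csf2rb (adjusted p = 0.0477) and 0.76 for Csf2rb2 (adjusted p = 0.00408).

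Csf1r, the CSF-1 receptor gene, was not past the threshold between marrows. It read 8.81, 9.40, 8.92, 9.25 and 9.07 in macrophages with metastases, against 10.05, 9.43, 9.32, 9.65 and 8.77 in healthy macrophages. Healthy replicate 5 was the lowest of the 10 arrays and healthy replicate 1 the highest. The difference of -0.35 ± 0.16 had an adjusted p of 0.345, and without healthy replicate 5 it was -0.52 with an adjusted p of 0.0463. In monocytes Csf1r read 9.95, 9.65, 9.72 and 9.99 with metastases, against 10.06, 10.11, 9.81, 9.89 and 9.89 in healthy marrow, a difference of -0.12 (95% interval -0.48 to 0.24). Its ligand gene Csf1 differed by 0.15 in macrophages (-0.11 to 0.41) and by -0.03 in monocytes (-0.30 to 0.25).

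Kit and Flt3, the progenitor receptors, and Il6ra did not pass between marrows either. Kit differed by 0.01 ± 0.19 in macrophages (adjusted p = 0.986). In monocytes it read 4.06, 5.03, 4.75 and 4.95 with metastases, against 5.22, 5.12, 5.41, 5.50 and 4.84 in healthy marrow, with a difference of -0.52 ± 0.20 (adjusted p = 0.437) and groups that overlapped. Il6ra differed by -0.18 ± 0.11 in macrophages (adjusted p = 0.501) and by -0.07 ± 0.12 in monocytes (adjusted p = 0.958). For Flt3 the intervals were wide, from -0.75 to 0.77 in macrophages and from -0.36 to 1.25 in monocytes.

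**Figure D2:**
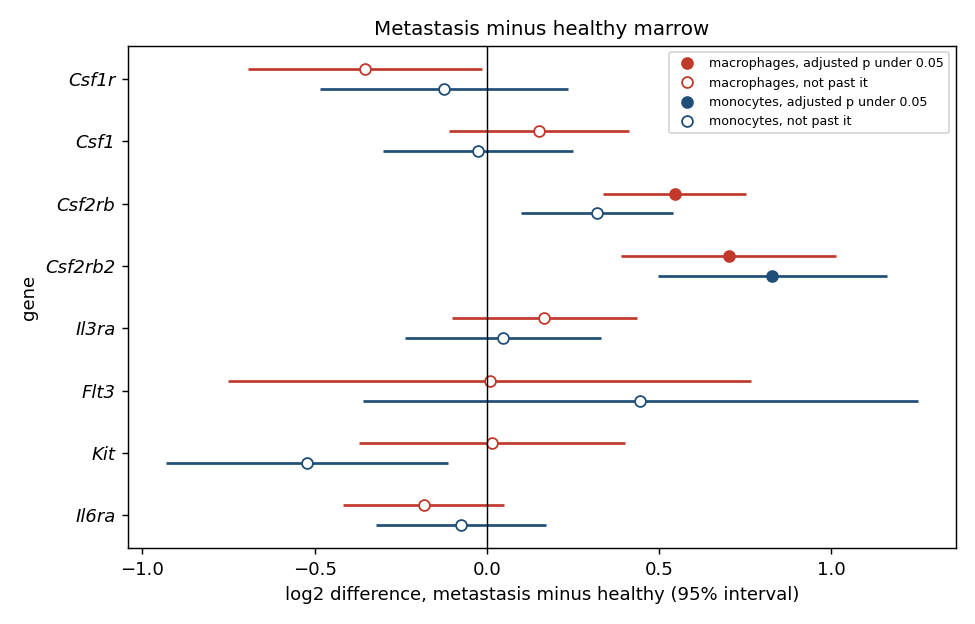
Log2 difference between marrow with metastases and healthy marrow for each of the 8 genes in macrophages and in monocytes (points, limma estimates from 19 arrays), with 95% intervals as bars and 0 as the line of no difference. Csf2rb and Csf2rb2 lie to the positive side in both cell types, and Flt3 has the widest intervals.

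Whether the response to metastasis depends on cell type was asked with the interaction, the macrophage difference minus the monocyte difference. None of the 8 genes passed in limma, where 0.0619% of all genes did, and 1653 of 20998 genes had an unadjusted p below 0.05. The interaction was 0.23 for Csf2rb and -0.13 for Csf2rb2, so that the passing of Csf2rb in macrophages and not in monocytes is not shown to be a difference between the cell types.

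The second question was how the 2 cell types differ in these genes within each kind of marrow. In marrow with metastases, Csf1 and Kit were higher and Csf1r, Csf2rb2, Il3ra and Il6ra lower in macrophages than in monocytes. In healthy marrow, Csf1 and Kit were again higher, and Csf1r, Csf2rb, Il3ra and Il6ra lower. Thus 6 of 8 genes passed in each marrow, where 26.5% of all genes passed with metastases and 28% in healthy marrow. Here too the choice of genes was not blind to these data. With metastases 2 were higher, beside 9.6% of all genes, and 4 lower, beside 16.9%, and in healthy marrow 2 were higher, beside 10%, and 4 lower, beside 18%. The groups did not overlap for 4 of the 8 genes with metastases, where 24.2% of all genes did not, and for 6 of the 8 in healthy marrow, where 20.8% did not. The 2 comparisons share no array. The median difference of the 8 was -0.26 with metastases and -0.31 in healthy marrow, beside 0.0053 and -0.013 over all genes.

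**Figure D3:**
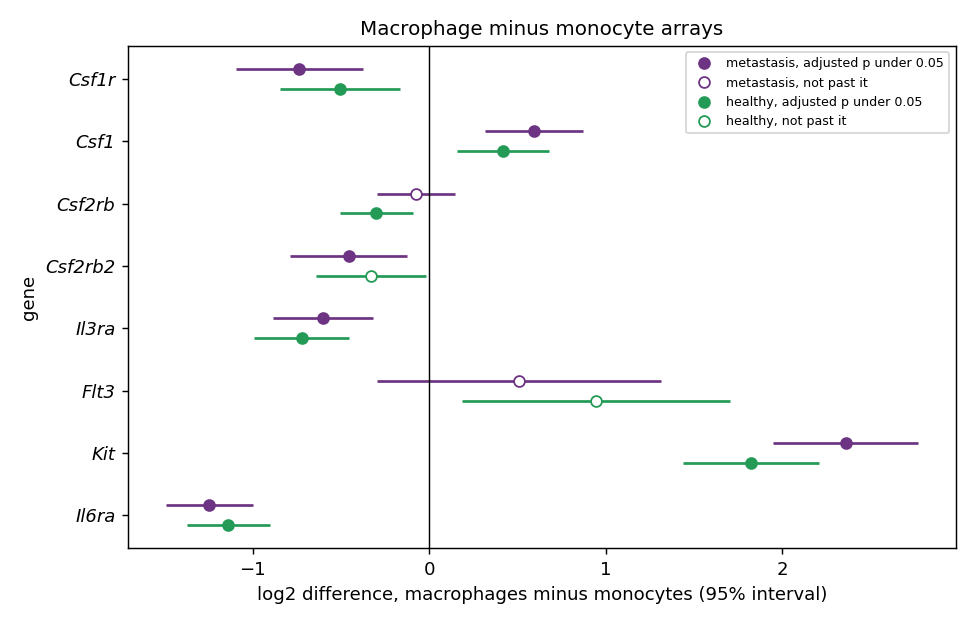
Log2 difference between macrophages and monocytes for each of the 8 genes in marrow with metastases and in healthy marrow (points, limma estimates), with 95% intervals as bars and 0 as the line of no difference. Kit lies farthest to the positive side and Il6ra farthest to the negative side in both marrows.

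Kit, the stem cell factor receptor gene, showed the widest difference of the 8. It read 6.85, 6.96, 7.07, 6.94 and 7.47 in macrophages, against 4.06, 5.03, 4.75 and 4.95 in monocytes with metastases. In healthy marrow it read 6.60, 6.69, 7.47, 7.15 and 7.31 in macrophages, against 5.22, 5.12, 5.41, 5.50 and 4.84 in monocytes. No macrophage array came within 1 log2 unit of any monocyte array. The differences were 2.36 ± 0.20, or 5.13-fold, with metastases (adjusted p = 5.27e-09) and 1.82 ± 0.19, or 3.54-fold, in healthy marrow (adjusted p = 9.05e-08), and both passed under all 26 alternative settings. Genes of other cells that carry Kit moved too: 7 of 10 stem and progenitor markers were higher in macrophages with metastases, and 4 of 10 in healthy marrow, where Cd34 was lower. Summed linear levels of these 10 ran from 959 to 1320 in macrophages and 267 to 408 in monocytes with metastases. In healthy marrow they ran from 638 to 795 in macrophages and 291 to 336 in monocytes. In macrophages Ly6a and Erg weigh most in these sums. They averaged 9.04 and 8.19 with metastases and 7.83 and 8.09 in healthy marrow. Cd34 averaged 6.31 in macrophages and 6.42 in monocytes with metastases, and 5.58 and 7.08 in healthy marrow. Of 8 mast cell and basophil markers, 7 were higher in macrophages with metastases and 5 in healthy macrophages, with summed linear levels of 131 to 868 against 93.5 to 127 with metastases and 192 to 273 against 95.1 to 114 in healthy marrow. Among them Fcer1a was not above the Y-linked level on any array of healthy macrophages or of monocytes. The same held for Tpsb2 in healthy macrophages, Cma1 in monocytes and Cpa3 in monocytes with metastases. In each group 4 of the 8 lay above that level on all arrays. Gata2 is counted in both the progenitor and the mast cell list. Of 9 erythroid precursor markers, 3 were higher in macrophages with metastases and 5 in healthy macrophages. Neutrophil precursor markers divided: of 6, 2 were higher and 3 lower with metastases, and 2 higher and 4 lower in healthy marrow. Their median differences were -0.425 and -1.22. Over all genes, 9.6% were higher and 16.9% lower in macrophages with metastases, and 10% higher and 18% lower in healthy marrow. Macrophage replicates 2, 4 and 5 with metastases, high in Cd34 and Mcpt8, had Kit values of 6.96, 6.94 and 7.47, beside 6.85 and 7.07 on replicates 1 and 3. With those 3 arrays left out the difference was 2.26 (adjusted p = 2.86e-06). The part of the other marker genes in the Kit result was not tested.

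Il6ra, the IL-6 receptor alpha chain gene, was the reverse. It read 8.68, 8.71, 8.83, 9.27 and 9.25 in macrophages, against 10.15, 10.14, 10.31 and 10.18 in monocytes with metastases. In healthy marrow it read 9.31, 9.07, 9.20, 9.21 and 8.86 in macrophages, against 10.23, 10.23, 10.29, 10.30 and 10.29 in monocytes. Every macrophage array lay below every monocyte array, and monocytes from healthy marrow stayed between 10.23 and 10.30. The differences were -1.25 ± 0.12, 2.37-fold lower, with metastases (adjusted p = 3.92e-08) and -1.14 ± 0.11, 2.20-fold lower, in healthy marrow (adjusted p = 5.34e-08). Il6st, the gene of its signalling partner gp130, was lower by -2.06 ± 0.16 (adjusted p = 1.17e-09) and -1.90 ± 0.15 (adjusted p = 1.38e-09), and averaged 8.08 in macrophages and 10.14 in monocytes with metastases, and 8.24 in macrophages and 10.14 in monocytes of healthy marrow. For Il6ra both differences passed under all 26 alternative settings. In the same comparisons 8 Ly6C-high monocyte markers had median differences of -1.09 and -1.23. The part of such differences in the Il6ra result was not tested.

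Csf1r and Csf1 differed between the cell types in opposite directions. Csf1r was lower in macrophages by -0.74 ± 0.17 (1.67-fold, adjusted p = 0.00234) with metastases, where no arrays overlapped, and by -0.51 ± 0.16 (1.42-fold, adjusted p = 0.0223) in healthy marrow, where healthy macrophage replicate 1 (10.05) lay among the monocytes. Csf1 read 4.90, 4.62, 4.53, 4.78 and 4.93 in macrophages, against 4.10, 4.21, 4.19 and 4.13 in monocytes with metastases, groups that did not overlap. In healthy marrow it read 4.56, 4.90, 4.40, 4.29 and 4.84 in macrophages, against 4.53, 4.23, 4.20, 3.84 and 4.12 in monocytes, and the groups overlapped. The differences were 0.60 ± 0.13 (adjusted p = 0.00148) and 0.42 ± 0.13 (adjusted p = 0.0144). Csf1 lay near the array medians of 4.45 to 4.55, so its values may lie near background. The calls in healthy marrow were less stable than those with metastases. For Csf1r the call was lost without healthy macrophage replicate 3 or 5, without healthy monocyte replicate 1 or 2 and after quantile normalization, with an adjusted p up to 0.077 and differences from -0.34 to -0.48. For Csf1 it was lost without healthy macrophage replicate 2 or healthy monocyte replicate 4, at 0.34 and 0.33, with an adjusted p up to 0.0545. Stromal cells are a source of Csf1 in marrow. Of 10 stromal and bone-forming markers, 7 lay above the Y-linked level on all arrays of each group except healthy macrophages, where 6 did, and Lepr and Lum were not above it on any array. Runx2, 1 of the 10, was higher in macrophages in both marrows, beside 9.6% of all genes with metastases and 10% in healthy marrow. Pdgfrb, 1 of the 10, was lower with metastases, beside 16.9% of all genes. The summed linear levels ran from 252 to 354 in macrophages and from 210 to 237 in monocytes with metastases. In healthy marrow they ran from 265 to 308 in macrophages and from 200 to 234 in monocytes. The part of such cells in the Csf1 result was not tested.

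Il3ra was lower in macrophages in both marrows. It read 5.86, 6.32, 6.001, 6.45 and 6.42 in macrophages, against 6.70, 7.10, 6.43 and 7.01 in monocytes with metastases, where replicate 3 of the monocytes fell just inside the macrophage range. In healthy marrow it read 5.88, 6.11, 5.88, 6.06 and 6.30 in macrophages, against 6.67, 6.82, 6.74, 6.80 and 6.80 in monocytes, with no overlap. The differences were -0.60 ± 0.14 (1.52-fold, adjusted p = 0.00174) and -0.72 ± 0.13 (1.65-fold, adjusted p = 0.000135), and they passed under all 26 alternative settings. Csf2rb2 was lower in macrophages by -0.45 ± 0.16 (adjusted p = 0.0377) with metastases, a call lost in 7 of 26 alternatives, with the value at -0.26 (adjusted p = 0.0842) without macrophage replicate 2 and at -0.38 (adjusted p = 0.13) without monocyte replicate 3. The other single arrays whose omission lost it were macrophage replicate 1 and monocyte replicates 1 and 4, at -0.43 to -0.46. In healthy marrow the arrays of Csf2rb2 did not overlap, yet the difference of -0.33 ± 0.15 did not pass (adjusted p = 0.117). There the fit shares its spread with the other groups, and in a fit of the healthy arrays alone, or without macrophage replicate 2 of marrow with metastases, Csf2rb2 passed. Csf2rb was lower in healthy macrophages by -0.30 ± 0.10 (adjusted p = 0.027) and did not pass with metastases (-0.07 ± 0.11, adjusted p = 0.699). Its call in healthy marrow was lost without healthy macrophage replicate 2 or 3 or healthy monocyte replicate 1, 3 or 5 (-0.27 to -0.30), and after quantile normalization (-0.18, adjusted p = 0.208).

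Flt3, the receptor gene of progenitors and dendritic cells, varied widely within groups, with SDs from 0.36 in healthy monocytes to 1.10 in monocytes with metastases. It read 5.45, 7.22, 5.97, 6.25 and 6.80 in macrophages, against 4.72, 6.08, 7.26 and 5.28 in monocytes with metastases. In healthy marrow it read 7.08, 6.16, 6.07, 6.50 and 5.85 in macrophages, against 5.07, 5.74, 5.50, 5.68 and 4.94 in monocytes. Among monocytes with metastases replicate 3 had the highest value of all 19 arrays and replicate 1 the lowest. Macrophages and monocytes did not overlap in healthy marrow, but the difference of 0.94 ± 0.37 had an adjusted p of 0.0593, and 9 of 26 alternatives put it past the threshold. With metastases the difference was 0.51 ± 0.39 (adjusted p = 0.403), and without monocyte replicate 3 it was 0.98 (adjusted p = 0.0411). Without macrophage replicates 2, 4 and 5 it was -0.12 (adjusted p = 0.91).

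Some markers of dendritic cells, picked after their values were seen, stood high on some of the arrays with high Flt3. The markers named differ between the groups, so no shared course of the whole list with Flt3 is shown. Siglech, a plasmacytoid dendritic cell gene, read 4.29, 7.95, 5.24, 6.57 and 7.44 on replicates 1 to 5 of macrophages with metastases, and these arrays rank alike for Siglech and Flt3. Healthy macrophage replicate 1, highest of its group in Flt3, was also highest in Itgax (7.12) and Clec9a (6.79), dendritic cell genes. Monocyte replicate 3 with metastases had no such mark: its Siglech was 4.40 and its Itgax 4.16, within the range of the other 3, while Mertk, a macrophage receptor gene, read 6.42 there and 4.18 to 4.65 on the others. Of the 10 dendritic cell markers besides Flt3, 7 were higher in macrophages than in monocytes with metastases and 6 in healthy marrow, with summed linear levels of 328 to 835 against 195 to 229 and of 527 to 844 against 272 to 352. The part of these cells in the Flt3 levels was not tested.

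**Figure D4:**
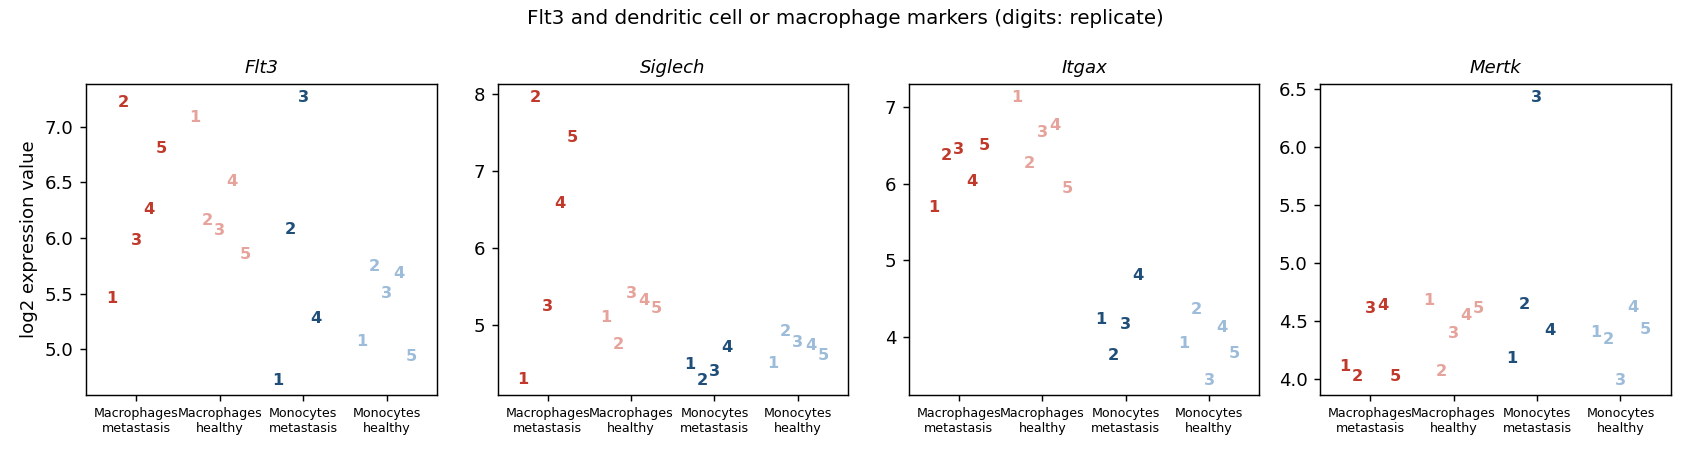
Log2 level of Flt3 on each of the 19 arrays beside that of dendritic cell and other marker genes, by group and replicate. Flt3 is highest on monocyte replicate 3 with metastases (7.26) and macrophage replicate 2 with metastases (7.22), and Siglech is high on that macrophage array (7.95) and not on that monocyte array (4.40).

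The groups were ranked by mean for each gene. Kit and Il6ra ordered by cell type, with the 2 marrows of a cell type not past the threshold from each other. Csf2rb and Csf2rb2 ordered as monocytes with metastases, macrophages with metastases, healthy monocytes and healthy macrophages. For Csf2rb the first 2 of that order did not differ past the threshold (adjusted p = 0.699), and the last 2 did. For Csf2rb2 the first 2 differed (adjusted p = 0.0377), and the last 2 did not pass (adjusted p = 0.117). The middle neighbours, which differ in both cell type and marrow, were not tested. By group mean, Il3ra and Csf1r were highest in monocytes of both marrows, and Csf1 and Flt3 in macrophages of both. No comparison of Flt3 passed, however, and its highest single array was a monocyte array. The array design does not allow the level of one gene to be set against that of another. The Y-linked level and the summed linear levels are therefore rough guides only.

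Other genes of the same pathways were counted from lists of ligands, related receptors, signal transducers, negative regulators, STAT5 target genes and myeloid transcription factors. Between marrows few of them passed. In macrophages, 1 of 12 negative regulators passed (Socs3) and none of 12 ligands, 10 related receptors, 17 signal transducers, 8 STAT5 targets or 12 transcription factors. In monocytes, Gab2 of the signal transducers, Socs3 of the negative regulators and Pim1 of the STAT5 targets passed, 1 in each list, and none of the ligands, related receptors or transcription factors did. Medians of the 6 lists lay between -0.055 and 0.097 in macrophages and between -0.063 and 0.011 in monocytes.

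Pim1, a kinase gene induced by STAT5, read 6.18, 6.39, 5.99 and 6.16 in monocytes with metastases. It read 5.42, 5.33, 5.37, 5.39 and 5.50 in healthy monocytes. Between marrows it was the only 1 of 8 STAT5 targets to pass in monocytes. Of the 8 differences there 4 were positive, with a median of 0.0034. All arrays with metastases lay above all healthy ones, and the difference of 0.78 ± 0.12 passed (adjusted p = 0.00144). In macrophages Pim1 differed by 0.39 ± 0.11 (adjusted p = 0.0983). Socs3, an inhibitor of cytokine receptor signalling, was higher with metastases by 0.55 ± 0.14 in macrophages (adjusted p = 0.047, past the threshold in 8 of 26 alternatives) and by 0.66 ± 0.14 in monocytes (adjusted p = 0.035, in 18 of 26). Over both cell types it was higher by 0.61 ± 0.10 (adjusted p = 0.00136). Gab2, a docking protein of growth factor receptors, was higher by 0.61 ± 0.13 in monocytes (adjusted p = 0.0351, in 17 of 26 alternatives) and differed by 0.02 ± 0.13 in macrophages (adjusted p = 0.967).

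Between cell types the pathway lists divided, at shares to be read beside the 26.5% and 28% of all genes that passed. List medians with metastases and in healthy marrow were -0.19 and -0.067 for transcription factors, 0.013 and -0.019 for signal transducers, and 0.12 and 0.079 for ligands. They were 0.089 and 0.10 for related receptors, -0.044 and 0.13 for negative regulators, and 0.39 and 0.27 for STAT5 targets. Of 12 transcription factors, 4 were higher and 4 lower in macrophages than in monocytes in each marrow. Higher were Ets2 (1.91 and 1.80, with metastases and in healthy marrow), the neutrophil factor Gfi1 (1.13 and 1.10), the progenitor factor Myb (0.80 and 0.44) and Fli1 (0.43 and 0.47). Lower were the monocyte factors Klf4 (-1.85 and -1.37) and Irf8 (-1.07 and -1.49), with Cebpa (-1.24 and -1.31) and Cebpb (-0.70 and -0.54). Among 17 signal transducers, 2 were higher and 5 lower with metastases and 4 higher and 5 lower in healthy marrow. Gab2 was lower by -1.21 and -0.62. Stat5b, which carries beta chain signals, was lower by -0.55 and -0.52. Among 12 ligands, Osm, a ligand of the gp130 family, was higher by 0.64 and 0.63, and Il34, the second ligand of Csf1r, passed with metastases (0.40 ± 0.12, adjusted p = 0.0165) and not in healthy marrow (-0.03 ± 0.11, adjusted p = 0.875). Csf2 (GM-CSF), Il6 and Kitl were not above the Y-linked level on any array of macrophages or monocytes with metastases. Of 10 related receptors, 3 were higher and 3 lower with metastases and 1 each in healthy marrow. Il7r, of lymphocytes, was higher by 1.09 and 1.28, and Il6st, given above, was lower in both marrows. Csf3r, Lifr and Pdgfrb were among those that passed with metastases and not in healthy marrow. Of 12 negative regulators, 4 were higher and 4 lower with metastases and 2 higher and 3 lower in healthy marrow, and of 8 STAT5 targets, 5 were higher and 2 lower with metastases and 3 higher in healthy marrow.

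For the 3 genes whose group means spanned at least 1, the genes with the most similar course over the 19 arrays were sought by the root mean square difference of log2 values, each gene centred on its mean. The nearest to Csf2rb2 were Gda (0.226), Sbno2 (0.247) and Pim1 (0.279). The nearest to Kit were Bpifb5 (0.266), Rcn1 (0.268) and the IGF-1 receptor gene Igf1r (0.276). The nearest to Il6ra were Pld4 (0.148), Map4k4 (0.154) and Camsap2 (0.171). Gda, which encodes guanine deaminase, averaged 9.73 in macrophages with metastases and 9.33 in healthy macrophages, and 10.3 in monocytes with metastases and 9.54 in healthy monocytes.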

How the data were processed

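Sorted macrophages and Ly6C+ monocytes were profiled on 19 Affymetrix arrays. The deposited values are log2 expression levels, 1 per gene symbol and array for 20998 genes, a scale judged from their range of 1.38 to 12.6. The package oligo is named per the submitters' processing notes. How the authors corrected background, normalized arrays and summarized probe sets, and with which version, is not given in the sources used here. Precision is limited by the 4 or 5 arrays per group.

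The values were used as deposited. In R 4.3.3, limma 3.58.1 (functions lmFit, contrasts.fit and eBayes) fitted the 4 group means on all 19 arrays and 6 contrasts of them. Adjustment was by Benjamini-Hochberg over the 20998 genes, with a threshold of 0.05. Positive differences mean higher with metastases or in macrophages. The fit was tested on simulated data. The 9 genes and the pathway and marker lists were chosen with earlier results of these data known. From each pathway list the rule named at most 6 genes past the threshold per comparison, by smallest adjusted p, and the 3 nearest genes of each gene with group means spanning at least 1, leaving out predicted transcripts, small RNAs, olfactory and vomeronasal receptors and antigen receptor segments. Marker and other genes named beside a result were added after their values were seen. Some named-gene results are not reported here. Promoters came from RefSeq (GRCm38.p6). Alternatives were an intensity trend with robust moderation, array weights, removal of dim genes (11005 kept), quantile normalization, equal array medians, a fit of only the 2 groups compared and omission of each array. Omission of 3 macrophage arrays together was added after seeing the data. For a comparison of 2 groups, the settings counted include omissions of arrays from the other groups. Those leave the difference unchanged and move only its adjusted p, through the shared spread.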

Additional observations from a re-analysis of the deposited data

Results flagged for a closer look

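Each group of 4 or 5 arrays was examined for 1 array far from the rest, by the gap to its nearest neighbour as a share of the group's range (Dixon's test). No array was flagged among the 32 groups of the 8 growth factor and receptor genes. Among 220 groups of the 55 other named genes 11 were flagged, and chance flags about 1 group in 20. In macrophages with metastases, Stat5a on replicate 5 read 6.18 while the others read 6.38 to 6.44, Gfi1 on replicate 1 read 6.27 (others 6.11 to 6.15) and Ly6c2 on replicate 2 read 11.88 (others 12.18 to 12.26). In healthy macrophages, Socs1 on replicate 3 read 5.88 (others 5.13 to 5.31) and Mcpt8 on replicate 2 read 7.34 (others 6.57 to 6.70). In monocytes with metastases, Il2ra on replicate 4 read 2.93 (others 3.37 to 3.43) and Gfi1 on replicate 2 read 5.30 (others 4.92 to 4.97). In healthy monocytes, Spry2 on replicate 4 read 4.95 (others 4.66 to 4.74), Dusp6 on replicate 3 read 9.25 (others 9.68 to 9.82), Ets2 on replicate 5 read 4.18 (others 5.11 to 5.27) and Vcam1 on replicate 2 read 3.85 (others 4.28 to 4.37).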

How the results depend on the processing

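Over the 1232 values of the 8 genes under alternatives, 1192 kept their direction and side of the threshold or did not pass in either setting, 26 lost a call, 14 gained one and 0 reversed among called values. The count of the 8 genes past the threshold in macrophages between marrows was 2, and 1 (Csf2rb) in a fit of only the 2 groups compared, the cause of which was not tested. Leaving out 1 array at a time gave 1 to 3 genes there, 0 to 1 in monocytes, 5 to 6 between cell types with metastases, 4 to 8 between cell types in healthy marrow, 0 to 0 for the interaction and 2 to 2 for the mean of both cell types. The count of all genes between marrows moved more: in macrophages from 259 to 134 with array weights, 65 in a fit of 2 groups and 153 to 546 without single arrays, and in monocytes from 108 to 328, 210 and 61 to 151. For the interaction it was 13, with 6 under the intensity trend, 21 with array weights, 29 without the 3 macrophage arrays and 4 to 48 without single arrays, and for the mean of both cell types 365, with 238 to 532. With equal array medians the share of higher calls was 39.8% in macrophages, where the values as deposited gave 51.7%, and 28.6% against 46.2% for the interaction. Between cell types with metastases it was 36.2% as deposited, 27.6% with equal array medians and 43.5% after quantile normalization. In healthy marrow it was 35.8%, 32% and 42.9% in the same order. Of the other named genes, 2 without a call took the opposite sign and passed when the 3 macrophage arrays were left out: Mcpt8 in macrophages (-0.96, beside 0.86 with all arrays) and Cd34 over both cell types (-0.68, beside 0.03). No paired analysis was possible because the labels give no replicate numbers shared between groups.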

Other observations

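Among macrophages with metastases, replicates 2, 4 and 5 shared high levels of several genes that lie outside the growth factor receptors. Dntt, the terminal transferase gene of lymphoid precursors, read 5.75, 6.28 and 6.85 there and 4.10 and 3.55 on replicates 1 and 3. Meis1, of progenitors, read 5.56, 5.04 and 4.89 on the same 3 arrays and 4.17 and 3.93 on the other two. Vcam1 ran the other way, at 5.36, 5.39 and 5.29, with 6.30 and 6.13 on replicates 1 and 3. Healthy macrophages read 3.79 to 4.49 for Dntt and 5.92 to 6.49 for Vcam1.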
